A study of Mus musculus with 22 samples.

Results

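The genes described here are the protein-coding Wnt ligands, their Frizzled and Lrp5/6 receptors, the secreted antagonists (Sfrp, Frzb, Dkk, Wif1, Notum), the R-spondins with their Lgr receptors, the axins and the TCF/LEF transcription factors. They were picked by symbol from the annotated gene table, which gave 55 of 55385 genes. The antisense RNAs Fzd10os and Rspo4os also matched by symbol and were left out as non-coding. The tissue was the telencephalon (the forebrain region from which cortex and basal ganglia arise) of ICR mice at embryonic day 16.5 (E16.5) and embryonic day 13.5 (E13.5). All animals were of the ICR strain, and no mutation or treatment is named. RNA-seq, and ChIP-seq on native chromatin for H3K9ac, H3K9cr and H3K18la (acetylated, crotonylated and lactylated lysines of histone H3), had 2 libraries at each stage, stated to be biological replicates, and ATAC-seq of open chromatin had 2 libraries at E13.5. How many embryos or litters a library holds, and whether same-numbered libraries share one, is not stated in the labels.

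Wnt proteins are secreted, lipid-carrying ligands. Where a Frizzled and an Lrp5/6 co-receptor bind one together, the axin-based complex that destroys beta-catenin is blocked, and beta-catenin joins TCF/LEF factors at target genes. In the telencephalon the cortical hem at the dorsal midline is a classical source of Wnt ligands, and the pathway is known for its part in patterning the hippocampus, in keeping cortical progenitors dividing and in the growth and barrier properties of brain vessels.

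RNA libraries held 17533164 and 18024657 counts at E16.5 and 17059544 and 18485855 at E13.5. Tbr1, a marker of cortical neurons, stood at 221 and 227 CPM (counts per library, scaled) at E16.5 and 407 and 389 CPM at E13.5, and 6 of 10 midbrain, hindbrain and spinal cord markers had no count in any library. Several cell type lists moved with stage. All 12 endothelial markers were higher at E16.5 (summed level 570 and 595 CPM, against 228 and 238 CPM at E13.5), as were all 7 pericyte markers (249 and 271 CPM, against 88.2 and 84.8 CPM). All 10 cell division genes were lower at E16.5 (659 and 612 CPM, against 1838 and 1851 CPM). Among 10 radial glia genes 2 were higher and 8 lower, all 12 telencephalic markers were lower, and of 8 oligodendrocyte lineage genes 5 were higher and 2 lower. Replicate 2 at E13.5 had more RNA than replicate 1 at E13.5 for 8 of 12 diencephalic markers. The same held for 8 of 12 endothelial, 8 of 10 radial glia and 6 of 8 choroid plexus genes. It held for only 3 of 12 telencephalic and 1 of 7 pericyte markers. The 8 choroid plexus markers summed to 21.32 and 41.74 CPM in replicates 1 and 2 at E13.5, and to 21.45 and 43.16 CPM at E16.5. In bulk tissue, fewer cells of a type and less RNA per cell cannot be told apart. The part of shifts in cell types in the results below was not tested.

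Members of the Wnt pathway changed in both directions between the stages, with no common shift. Low counts kept 13 of the 55 genes out of the test, and of the 42 tested, 11 were higher and 13 lower at E16.5 (edgeR quasi-likelihood test, Benjamini-Hochberg adjusted p under 0.05 over 16237 genes). That is 26.2% and 31.0% of the tested members, close to the 28.4% higher and 29.2% lower among all genes tested. The median log2 change was -0.08 for the tested members and 0.01 for all tested genes. Of the called members, 9 changed over 2-fold upward and 4 over 2-fold downward (21.4% and 9.52% of those tested), against 12.7% and 4.24% of all tested genes. By role, 3 of 9 tested ligands were higher and 2 lower, 2 of 12 receptors were higher and 5 lower, 3 of 9 antagonists were higher and 1 lower, and 1 of 4 TCF/LEF factors was higher and 2 lower. The sharpest rise was that of the antagonist Sfrp5, and the sharpest fall that of the repressor Tcf7l1. In the authors' deposited table, which came from another tool, 11 members were higher and 12 lower, of which 10 and 12 were called the same way here.

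**Figure D1:**
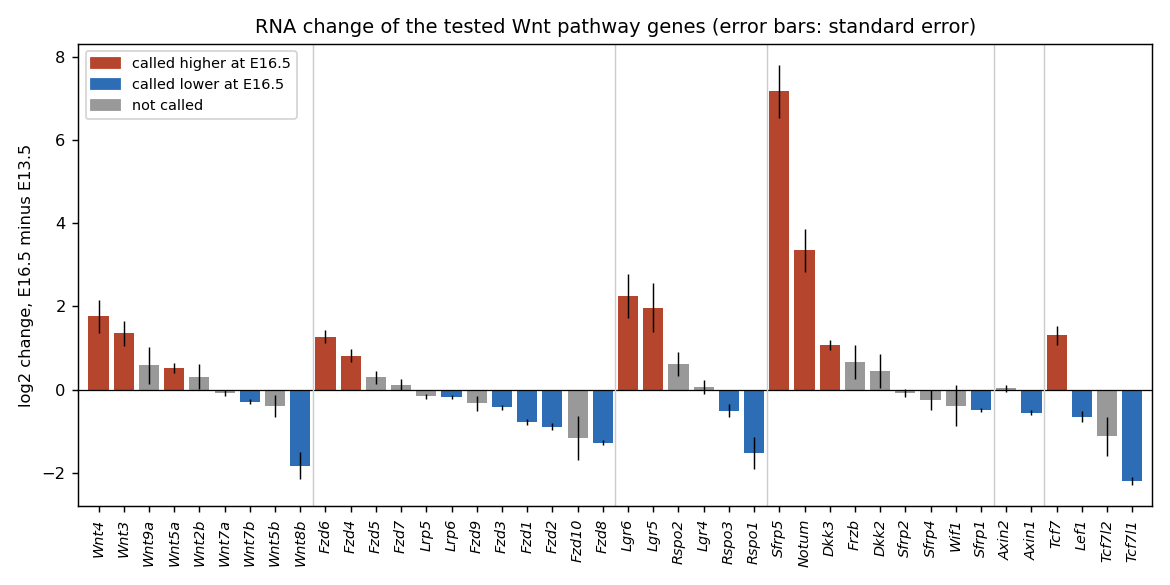
Log2 change of RNA (y axis, E16.5 minus E13.5) of the 42 tested genes, grouped by role and ordered by size within each; error bars are standard errors from 2 libraries per stage. Red bars are the 11 genes called higher, blue bars the 13 called lower, and grey bars the 18 not called; Sfrp5 reached 7.17 and Tcf7l1 -2.20.

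The promoters of 4 members are shown here as the 250 bases before the RefSeq start (GRCm38.p6, 5′ to 3′ on the gene's strand). Sfrp5 and Tcf7l1 had the largest rise and fall in RNA, the start of Wnt3 had H3K9ac peaks at E16.5 and none at E13.5, and a start of Wnt11 had H3K18la peaks at E16.5 and none at E13.5. Capitals mark CpG dinucleotides. The windows are chr19:42202253-42202502 on the minus strand for Sfrp5, chr6:72789046-72789295 on the minus strand for Tcf7l1, chr11:103773925-103774174 on the plus strand for Wnt3 and chr7:98838595-98838844 on the plus strand for Wnt11.
Sfrp5: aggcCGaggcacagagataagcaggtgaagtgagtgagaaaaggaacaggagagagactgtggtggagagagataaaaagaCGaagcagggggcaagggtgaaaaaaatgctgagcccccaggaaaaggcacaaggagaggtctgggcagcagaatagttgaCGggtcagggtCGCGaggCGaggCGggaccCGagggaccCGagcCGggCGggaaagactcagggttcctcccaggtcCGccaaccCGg
Tcf7l1: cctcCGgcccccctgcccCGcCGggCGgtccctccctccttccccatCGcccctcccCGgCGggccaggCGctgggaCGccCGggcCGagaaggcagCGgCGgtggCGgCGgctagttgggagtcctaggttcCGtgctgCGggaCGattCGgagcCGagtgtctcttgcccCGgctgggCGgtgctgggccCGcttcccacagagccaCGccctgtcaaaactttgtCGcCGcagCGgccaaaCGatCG
Wnt3: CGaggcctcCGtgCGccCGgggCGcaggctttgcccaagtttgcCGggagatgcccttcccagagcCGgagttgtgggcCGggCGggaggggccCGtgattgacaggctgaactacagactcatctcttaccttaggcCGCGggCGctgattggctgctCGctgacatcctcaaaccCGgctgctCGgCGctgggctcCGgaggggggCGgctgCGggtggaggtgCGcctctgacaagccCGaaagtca
Wnt11: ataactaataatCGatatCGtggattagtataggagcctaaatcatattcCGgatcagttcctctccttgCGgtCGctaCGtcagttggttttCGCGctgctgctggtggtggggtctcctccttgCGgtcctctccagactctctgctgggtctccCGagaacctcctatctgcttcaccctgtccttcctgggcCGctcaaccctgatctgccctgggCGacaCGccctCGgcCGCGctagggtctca
The Tcf7l1 window had 29 CpG and 73.6% G and C, that of Wnt3 had 22 CpG and 68.0%, that of Wnt11 had 16 CpG and 56.8%, and that of Sfrp5 had 13 CpG and 59.6%. RefSeq promoter entries existed for 36 of the 55 members, giving 44 windows. Their median G and C content was 66.6%, against 55.6% for the windows of all protein-coding genes, and the median observed over expected CpG ratio was 0.753, against 0.53. A search for the TCF/LEF letters CTTTGAA or CTTTGAT, with CTTTGTA or CTTTGTT as further forms, on both strands (no form is the reverse complement of another), matched 6 of the 44 windows, or 13.6%, against 13.2% of all windows. The matches lay before starts of Dkk1, Fzd7, Lef1, Tcf7l2, Wnt11 and Wnt5b, and the 4 windows printed above held none, the matching Wnt11 window being that of its other start.

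Among the ligands, Wnt3, Wnt4 and Wnt5a rose and Wnt8b and Wnt7b fell. Wnt3, a ligand of the beta-catenin branch, had 4.25 and 5.01 CPM at E16.5, against 1.38 and 2.21 CPM at E13.5, a log2 change of 1.36 (SE 0.30, adjusted p = 0.00538). Wnt4 had 2.23 and 2.07 CPM at E16.5, against 0.480 and 0.772 CPM at E13.5, a log2 change of 1.76 (SE 0.39, adjusted p = 0.00559). For both, the 2 stages did not overlap and the higher E13.5 library stayed well under the lower E16.5 library. Such separation of the stages held for every called member, so here and below it adds no support to a call. Wnt5a, best known for signalling without beta-catenin, had 22.6 and 20.7 CPM at E16.5, against 16.6 and 13.8 CPM at E13.5, a log2 change of 0.51 (SE 0.12, adjusted p = 0.00807). Wnt8b, which is expressed in the medial wall of the telencephalon near the hem, had 1.01 and 0.817 CPM at E16.5, against 3.18 and 3.31 CPM at E13.5, a log2 change of -1.83 (SE 0.32, adjusted p = 0.00157). Wnt8b was the ligand with the largest fall, and its libraries of a stage lay close together. Wnt7b, which acts on cortical cells and on brain vessels, had 139 and 136 CPM at E16.5, against 177 and 159 CPM at E13.5, a log2 change of -0.29 (SE 0.06, adjusted p = 0.00455).

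Wnt7a, which shares with Wnt7b its role in vessel growth, had 56.6 and 51.0 CPM at E16.5 and 53.8 and 59.7 CPM at E13.5 and was not called (log2 change -0.08, adjusted p = 0.419, and 0.01 with upper-quartile scaling). Its libraries of the 2 stages overlapped. Wnt2b had 2.51 and 2.997 CPM at E16.5 and 2.46 and 1.99 CPM at E13.5, and Wnt9a had 0.894 and 1.53 CPM at E16.5 and 0.841 and 0.772 CPM at E13.5. Wnt5b had 3.18 and 4.58 CPM at E16.5 and 5.83 and 4.47 CPM at E13.5. None of these 3 was called (adjusted p between 0.227 and 0.394). The other 10 ligands were too low to test. Wnt11 had 5 and 13 counts at E16.5 and none in either E13.5 library, which makes it at least 5.76-fold higher against a floor of 3 counts over the E13.5 group, and in the authors' deposited table its log2 change was 5.53 with an adjusted p of 0.0285. Wnt3a, the hem ligand, had 4 and 5 counts at E16.5 and 18 and 1 at E13.5, so the 2 libraries at E13.5 lay on either side of those at E16.5. Wnt10a had 2 and 4 counts at E16.5 and 6 and 0 at E13.5, and Wnt9b had 4 and 3 at E16.5 and 1 and 2 at E13.5. Wnt1, Wnt2, Wnt6, Wnt8a, Wnt10b and Wnt16 had between 0 and 3 counts in every library.

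**Figure D2:**
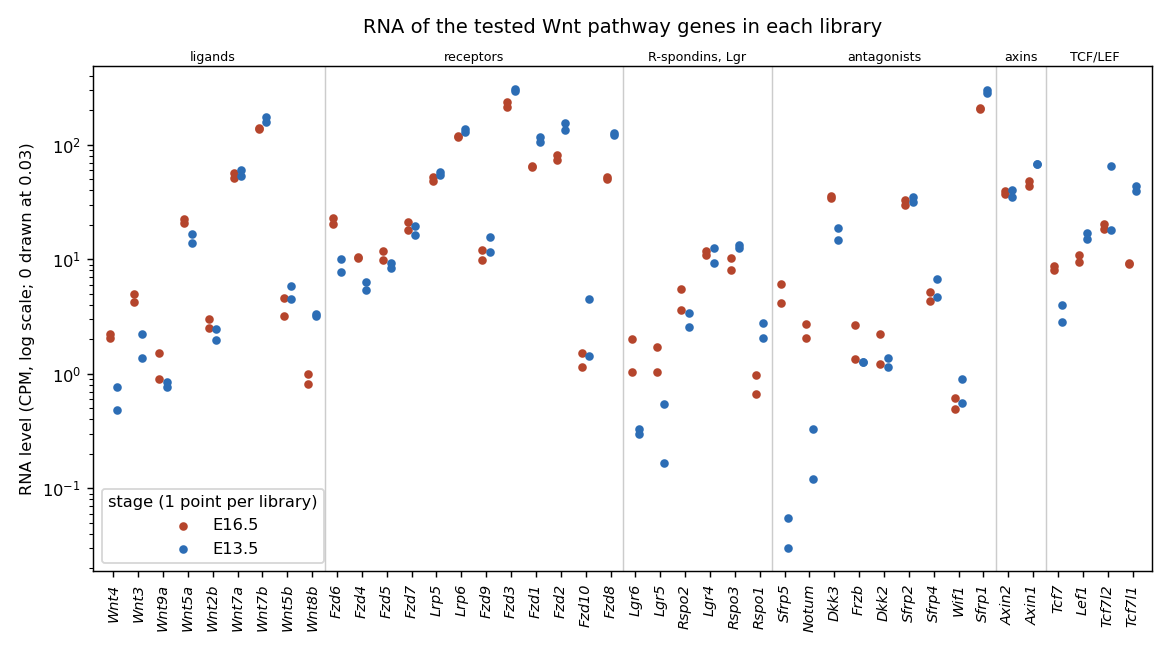
RNA level (y axis, CPM on a log scale, with 0 drawn at 0.03) of the 42 tested genes in each of the 4 libraries, E16.5 in red to the left of E13.5 in blue, grouped by role. For Sfrp5, Notum, Tcf7l1 and Fzd8 the 2 stages stand far apart, and Tcf7l2 has 1 library at E13.5, at 65.7 CPM, away from the other 3.

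The receptors split between a group of Frizzled genes that fell and Fzd4 and Fzd6, which rose. Fzd8, a receptor of the beta-catenin branch found on cortical progenitors, had 52.6 and 50.1 CPM at E16.5, against 121 and 126 CPM at E13.5, a log2 change of -1.27 (SE 0.06, adjusted p = 1.41e-06). Fzd2 had 82.1 and 73.6 CPM at E16.5, against 154 and 135 CPM at E13.5, a log2 change of -0.89 (SE 0.08, adjusted p = 4.07e-05). Fzd1 had 63.9 and 65.9 CPM at E16.5, against 118 and 105 CPM at E13.5, a log2 change of -0.78 (SE 0.07, adjusted p = 3.06e-05). As in every member called lower, each E16.5 library of these 3 receptor genes lay under each E13.5 library. Fzd3, which guides axons as part of the planar polarity machinery, had 235 and 215 CPM at E16.5, against 309 and 293 CPM at E13.5, a log2 change of -0.42 (SE 0.06, adjusted p = 4.56e-04). Lrp6, a co-receptor for Wnt ligands, had 117 and 119 CPM at E16.5, against 138 and 129 CPM at E13.5, a log2 change of -0.18 (SE 0.05, adjusted p = 0.0232). That small fall was not called with upper-quartile scaling (adjusted p = 0.216), without E16.5 replicate 1 (adjusted p = 0.0504) or without E13.5 replicate 1 (adjusted p = 0.150). Its relative Lrp5 had 51.9 and 47.9 CPM at E16.5 and 57.6 and 54.3 CPM at E13.5 and missed the threshold (adjusted p = 0.0687).

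Fzd6, a planar polarity receptor, had 20.2 and 23.0 CPM at E16.5, against 7.69 and 10.1 CPM at E13.5, a log2 change of 1.27 (SE 0.15, adjusted p = 2.12e-04). Fzd4, the Norrin receptor of brain and retinal endothelium, had 10.2 and 10.4 CPM at E16.5, against 5.35 and 6.29 CPM at E13.5, a log2 change of 0.82 (SE 0.16, adjusted p = 0.00310). Both rose with no overlap, in the same libraries in which all 12 endothelial markers rose (median log2 change 1.29), and the part of vessel content in these rises was not tested. Norrin itself (Ndp) had 4.64 and 3.32 CPM at E16.5 and 2.46 and 2.87 CPM at E13.5 and was not called (adjusted p = 0.109), while Adgra2, the endothelial co-receptor for Wnt7 ligands, rose by a log2 change of 1.08 (20.5 and 21.3 CPM at E16.5, against 9.61 and 10.1 CPM at E13.5, SE 0.11, adjusted p = 9.19e-05). Fzd5 had 9.94 and 11.8 CPM at E16.5 and 9.25 and 8.44 CPM at E13.5, Fzd7 had 18.1 and 20.98 CPM at E16.5 and 19.7 and 16.3 CPM at E13.5, and Fzd9 had 11.96 and 9.81 CPM at E16.5 and 15.8 and 11.6 CPM at E13.5. None of these 3 was called. Fzd10 had 1.51 and 1.14 CPM at E16.5 and 1.44 and 4.47 CPM at E13.5, so that 1 library at E13.5 stood above the other 3 (log2 change -1.16, SE 0.52, adjusted p = 0.0889, -0.13 without E13.5 replicate 2, and -1.76 with an adjusted p of 0.00173 without E13.5 replicate 1). The labels do not say whether counting used strand, and reads of Fzd10 and its antisense RNA Fzd10os (6 and 7 counts at E16.5, 3 and 2 at E13.5) cannot be told apart in that case.

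The secreted antagonists held the largest rise. Sfrp5, a decoy that binds Wnt ligands, had 110 and 76 counts at E16.5 (6.15 and 4.14 CPM), against 0 and 1 count at E13.5 (0 and 0.0551 CPM). Sfrp5 was thus all but undetected at E13.5 and present in both E16.5 libraries, at a ratio of 178 (95% counting interval 31.6 to 7087, adjusted p = 3.90e-05). Notum, an enzyme that strips the lipid from Wnt proteins and that the pathway itself induces in other tissues, had 2.07 and 2.72 CPM at E16.5, against 0.120 and 0.331 CPM at E13.5, a log2 change of 3.35 (SE 0.51, adjusted p = 7.59e-04). Dkk3, a divergent Dickkopf protein, had 34.2 and 35.6 CPM at E16.5, against 18.7 and 14.7 CPM at E13.5, a log2 change of 1.07 (SE 0.12, adjusted p = 1.60e-04). Sfrp1, a decoy made by cortical progenitors, went the other way, with 206 and 211 CPM at E16.5, against 284 and 300 CPM at E13.5, a log2 change of -0.49 (SE 0.05, adjusted p = 8.77e-05). Like every called member, these 4 had no overlap between the stages. Sfrp2 had 33.0 and 29.97 CPM at E16.5 and 31.6 and 35.2 CPM at E13.5 (log2 change -0.09, and 0.00 with upper-quartile scaling), and Sfrp4 had 4.36 and 5.23 CPM at E16.5 and 4.68 and 6.73 CPM at E13.5. Frzb had 1.34 and 2.67 CPM at E16.5 and 1.261 and 1.268 CPM at E13.5, and Dkk2 had 1.23 and 2.23 CPM at E16.5 and 1.38 and 1.16 CPM at E13.5. Neither these 4 nor Wif1 (11 and 9 counts at E16.5, 15 and 10 at E13.5) were called. Dkk1 had 5 and 9 counts at E16.5 and 6 and 7 at E13.5, and Dkk4 had no count.

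R-spondins raise the amount of Frizzled at the cell surface by acting through Lgr receptors. Rspo1 had 0.670 and 0.981 CPM at E16.5, against 2.76 and 2.04 CPM at E13.5, a log2 change of -1.53 (SE 0.38, adjusted p = 0.00919). Rspo3 had 10.2 and 8.01 CPM at E16.5, against 13.3 and 12.5 CPM at E13.5, a log2 change of -0.50 (SE 0.16, adjusted p = 0.0237). Both calls depended on single libraries. That of Rspo1 was lost without E16.5 replicate 1 (adjusted p = 0.0601) or E13.5 replicate 1 (adjusted p = 0.0526), and that of Rspo3 without E16.5 replicate 2 (adjusted p = 0.104), without E13.5 replicate 1 (adjusted p = 0.0657) and in DESeq2 (adjusted p = 0.0918). Rspo2 had 3.63 and 5.56 CPM at E16.5 and 2.58 and 3.42 CPM at E13.5 and was not called (adjusted p = 0.108), and Rspo4 had at most 4 counts in a library. Lgr6 (36 and 19 counts at E16.5, against 5 and 6 at E13.5, adjusted p = 0.00732) and Lgr5 (31 and 19 counts at E16.5, against 9 and 3 at E13.5, adjusted p = 0.0214) were both called higher from few reads, and in the authors' deposited table Lgr5 had an adjusted p of 0.0841. Without E16.5 replicate 1 neither was called (adjusted p = 0.0969 for Lgr6 and 0.163 for Lgr5), and the log2 change of Lgr5 was 1.33 without E13.5 replicate 2 (adjusted p = 0.122) and 3.002 without E13.5 replicate 1, against 1.97 with all 4 libraries. Lgr4 had 11.9 and 10.9 CPM at E16.5 and 9.31 and 12.6 CPM at E13.5, with overlapping libraries.

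Axin1, the scaffold of the beta-catenin destruction complex, fell, while Axin2, its counterpart that the pathway switches on, did not pass the test. Axin1 had 48.7 and 43.9 CPM at E16.5, against 67.7 and 67.9 CPM at E13.5, a log2 change of -0.55 (SE 0.07, adjusted p = 2.21e-04). Axin2 had 39.3 and 37.3 CPM at E16.5 and 40.0 and 35.0 CPM at E13.5, with both E16.5 libraries between the 2 of E13.5 (log2 change 0.03, SE 0.09, adjusted p = 0.768). Its direction turned when E13.5 replicate 2 (-0.08) or E16.5 replicate 1 (-0.02) was left out.

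The TCF/LEF factors bind the same sites but differ in activity, Tcf7l1 being known mainly as a repressor and Lef1 and Tcf7 more as activators. Tcf7l1 had 9.22 and 9.05 CPM at E16.5, against 44.1 and 39.6 CPM at E13.5, a log2 change of -2.20 (SE 0.10, adjusted p = 1.83e-06). It was the member that fell furthest, and the libraries of each stage lay close together. Tcf7l1 is expressed in neural progenitors, and the 10 cell division genes fell in the same libraries (median log2 change -1.65). The part of progenitor content in the fall of Tcf7l1 was not tested. Lef1 had 10.9 and 9.54 CPM at E16.5, against 17.1 and 15.1 CPM at E13.5, a log2 change of -0.65 (SE 0.13, adjusted p = 0.00374). Tcf7 had 7.99 and 8.83 CPM at E16.5, against 4.02 and 2.81 CPM at E13.5, a log2 change of 1.30 (SE 0.22, adjusted p = 0.00148). Lef1 and Tcf7 therefore changed in opposite directions, each with no overlap between the stages.

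Tcf7l2, a factor strongly expressed in the embryonic thalamus, depended on 1 library. It had 20.4 and 18.3 CPM at E16.5 and 18.1 and 65.7 CPM at E13.5, and was not called (log2 change -1.12, SE 0.47, adjusted p = 0.0746). Replicate 2 at E13.5 stood 3.63-fold above replicate 1, and of 14355 tested genes averaging 1 CPM or more at E13.5, 31 (Tcf7l2 included) had a ratio as high or higher. Without that library the log2 change was 0.09 (adjusted p = 0.642), and without E13.5 replicate 1 it was -1.77 (adjusted p = 5.21e-08). Fzd10 was 3.10-fold apart between the E13.5 libraries. The thalamic marker Gbx2 had 1.84 and 2.02 CPM at E16.5 and 3.66 and 10.3 CPM at E13.5, a ratio of replicate 2 over replicate 1 of 2.80. The other markers varied. This ratio was 1.63 for Barhl2, 1.53 for Sim1, 1.15 for Lhx9 and 1.11 for Six3. It was below 1 for Rorb (0.979), Otp (0.803), Irx3 (0.689) and Rax (0.459). At low levels, it was 6.89 for Foxb1, 8.72 for Irx1 and 9.64 for Irx2. The 12 diencephalic markers summed to 87.3 and 87.5 CPM at E16.5 and 94.3 and 113 CPM at E13.5, with none at 0 in any library, and the part of diencephalic tissue in the values of Tcf7l2 and Fzd10 was not tested. Leaving out that library gave 11 members higher and 15 lower, against 11 and 13 with all 4.

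**Figure D3:**
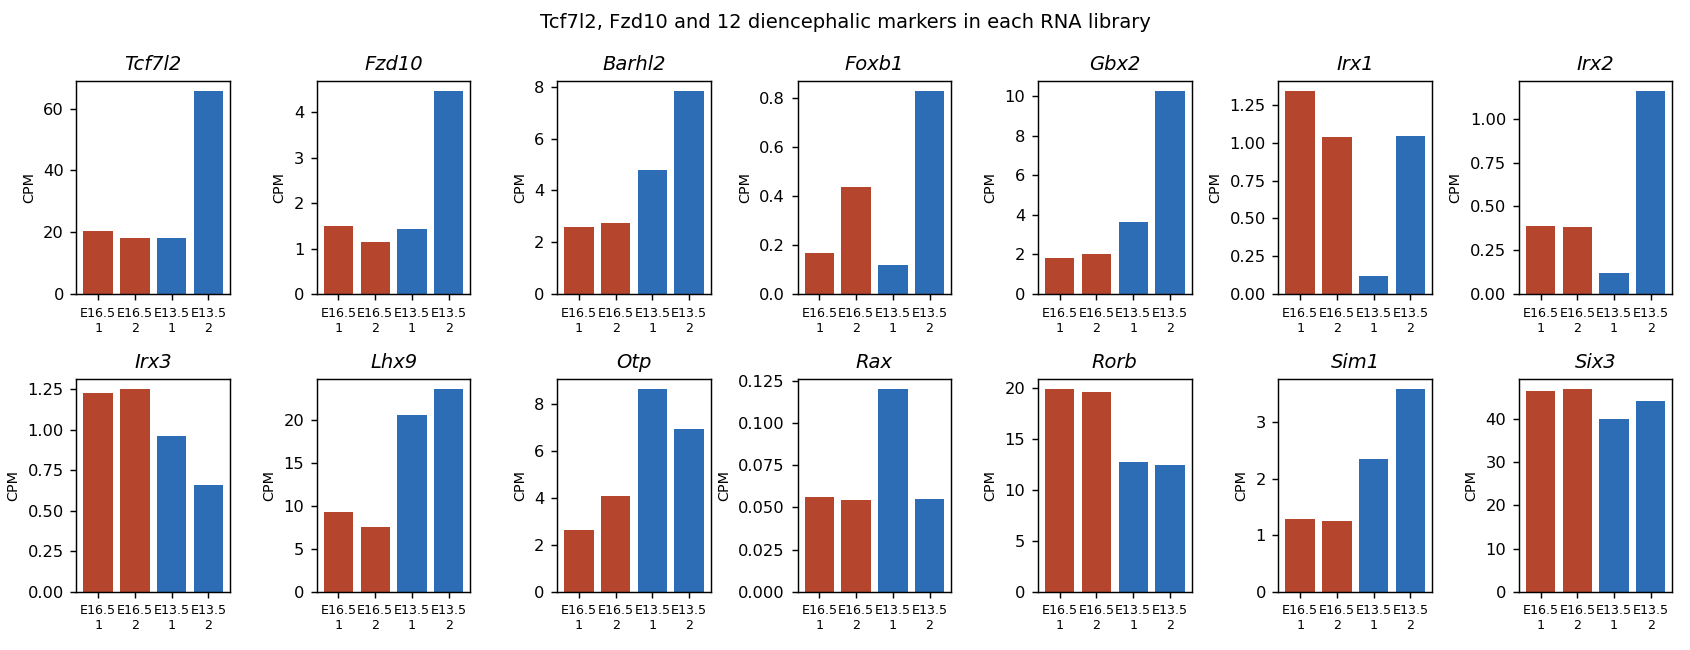
RNA level (y axes, CPM, 1 bar per library, replicate number under the stage) of Tcf7l2, Fzd10 and all 12 listed diencephalic markers, with E16.5 in red and E13.5 in blue. Tcf7l2 at 65.7 CPM, Fzd10 at 4.47 CPM and Gbx2 at 10.3 CPM were highest in replicate 2 at E13.5, while Irx1, Irx3, Otp, Rax, Rorb and Six3 were not.

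The other genes of the pathway, in a list of 61 cascade components and modulators of which 59 were tested, were likewise called in both directions, with 20 higher and 25 lower (33.9% and 42.4%, against 28.4% and 29.2% of all tested genes, median log2 change -0.10). With upper-quartile scaling the balance turned, to 22 higher and 20 lower. Among those that rose were Nkd2, which binds Dishevelled (12.96 and 14.8 CPM at E16.5, against 4.32 and 3.86 CPM at E13.5, log2 change 1.76), Daam2, a formin that acts downstream of Dishevelled (58.9 and 56.8 CPM, against 19.9 and 20.1 CPM, log2 change 1.53), and the polarity gene Vangl1 (6.42 and 6.76 CPM, against 3.12 and 3.09 CPM, log2 change 1.08). Adgra2, the corepressor Tle2 (log2 change 1.05) and Dact2 (log2 change 1.03) complete the 6 largest rises among called genes averaging 1 CPM or more, a limit that Sostdc1 missed (0.894 and 2.34 CPM at E16.5, against 0.300 and 0.331 CPM at E13.5, log2 change 2.33). The largest falls were those of Shisa2, of a family that in Xenopus holds Frizzled inside the cell (31.2 and 31.6 CPM at E16.5, against 101 and 92.6 CPM at E13.5, log2 change -1.62), Nkd1, a feedback inhibitor (29.8 and 30.6 CPM, against 71.6 and 68.8 CPM, log2 change -1.22), the glypican Gpc4 (log2 change -0.99) and the Wnt5a receptor Ror2 (log2 change -0.94). Cxxc5 (log2 change -0.70) and Ctnnb1, which encodes beta-catenin (881 and 854 CPM, against 1376 and 1374 CPM, log2 change -0.66), came next. Genes that prepare ligands for release rose, namely Porcn, which adds the lipid (log2 change 0.76, SE 0.07, adjusted p = 3.59e-05), and Wls, which carries Wnt proteins to the surface (log2 change 0.44, SE 0.11, adjusted p = 0.00844). These 2 were picked out after their values were seen.

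Of 26 genes listed as Wnt targets, 24 were tested, with 6 higher and 13 lower (25.0% and 54.2%, against 28.4% and 29.2% of all tested genes, median log2 change -0.27). The list leaves out the members, so targets such as Axin2 (log2 change 0.03, not called) and Notum (3.35, higher) are not counted. Apcdd1, Dact1, Nkd1, Rnf43 and Znrf3 are also in the cascade list. Tcf3, counted as lower (log2 change -0.95), is not one of the TCF/LEF genes described above. The largest falls were those of the proneural gene Neurog1 (1.23 and 1.04 CPM at E16.5, against 14.2 and 12.1 CPM at E13.5, log2 change -3.53, SE 0.22, adjusted p = 5.92e-06), the cyclin gene Ccnd1 (50.8 and 53.1 CPM, against 154 and 177 CPM, log2 change -1.67), Neurog2 (log2 change -1.65), Emx2 (log2 change -1.55), Sp5 (log2 change -1.34) and Nkd1. The 6 that rose were Cd44, Apcdd1, Cdkn1a, Vegfa, Tnfrsf19 and Ppard, with log2 changes between 0.37 and 1.04, and Apcdd1, a surface inhibitor of Wnt signalling, had 125 and 127 CPM at E16.5, against 68.9 and 68.0 CPM at E13.5. Neurog1, Neurog2 and Emx2 are also progenitor genes, and the cell division genes fell in the same libraries. The part of progenitor content in these falls was not tested.

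Peaks were then set beside the genes. A gene counted as marked by a library when a peak lay within 2 kb of its span. H3K9ac marked 46 of the 55 members in both libraries at E16.5 and 39 at E13.5 (83.6% and 70.9%, against 68.6% and 65.7% of 21887 protein-coding genes). H3K9cr marked 46 and 40 (against 68.3% and 65.9% of all genes), and H3K18la marked 32 and 37 (against 58.6% and 62.0%). ATAC peaks of both E13.5 libraries lay near 22 members, 40.0% against 52.1% of all genes. All 12 lists of the 3 marks had a peak near 29 members (52.7%, against 54.5%), and Dkk4, Notum and Rspo4 had none in any list. The members' spans were longer than those of other genes, with a median of 32022 bp against 17169 bp, and their part in these shares was not tested. The 13 members too low in RNA to test carried most of the difference between stages, with H3K9ac in both libraries near 10 at E16.5 and near 4 at E13.5, against 21.9% and 16.5% of 7024 such protein-coding genes. The H3K9ac lists were longer at E16.5 (49652 and 50668 peaks, against 37319 and 34532). Gene counts were not repeated with equal peak numbers, and the part of list length in them was not tested. Of the 11 members higher in RNA, H3K9ac marked 9 at each stage, and of the 13 lower, it marked 11 at each stage. Of the 18 not called, it marked 16 at E16.5 and 15 at E13.5. The shares among all genes called in RNA were not computed, so these counts show nothing particular to the called members.

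Regions called in both libraries of a stage and in neither of the other were counted next, from peaks merged over the 4 libraries of a mark. With 2 libraries per stage the counts carry no test. H3K9ac had 20 E16.5-only and 3 E13.5-only regions among 170 near members (11.8% and 1.76%, against 12.7% and 1.03% near all protein-coding genes). H3K9cr had 13 and 0 among 125 (10.4% and 0.0%, against 11.7% and 0.484%). H3K18la ran the other way, with 6 E16.5-only and 27 E13.5-only regions among 232 (2.59% and 11.6%, against 4.27% and 7.13%). Regions shared by all 4 libraries came to 72 of H3K9ac (42.4%, against 51.9%), 63 of H3K9cr (50.4%, against 57.5%) and 66 of H3K18la (28.4%, against 38.6%). The lists themselves differed in length, with 49652 and 50668 H3K9ac peaks at E16.5 and 37319 and 34532 at E13.5. When each library was held to the same number of peaks, the H3K9ac counts were 8 and 11 and the H3K9cr counts 2 and 6, so that their direction turned, while the H3K18la counts were 4 and 28. H3K18la E16.5-only regions numbered 35 when E16.5 replicate 1, which had 62073 peaks against 76037 in replicate 2, was left out.

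**Figure D4:**
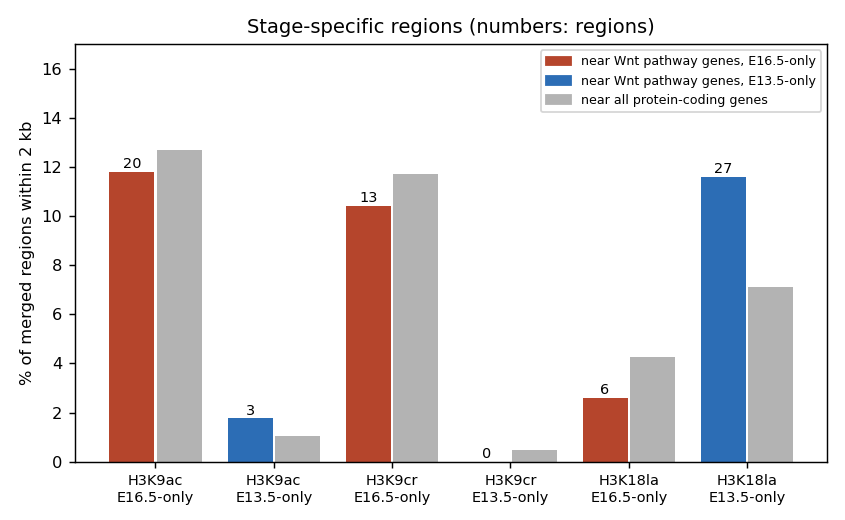
Share of merged regions (y axis, percent) that were called in both libraries of 1 stage and neither of the other, near the Wnt pathway genes (E16.5-only red, E13.5-only blue, with the number of regions above the bar) and near all protein-coding genes (grey). The H3K9ac and H3K9cr shares lie near the grey bars, and H3K18la E13.5-only regions make up 11.6% near the pathway genes against 7.13%.

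The 4 genes with 3 or more such regions of a mark were Lef1, Tcf7l1, Tcf7l2 and Lgr5, whose spans of 114061, 162675, 191863 and 137467 bp are long beside the median of the members. Lef1 (chromosome 3, 131110297 to 131224357) had 4 H3K9ac regions called at E16.5 only, the strongest at chr3:131180819-131181642, inside the gene and 24525 bp from its nearest listed start, with a fold enrichment of 8.37 and 9.73 over the caller's local background. That enrichment is the authors' value for a peak and serves here only to describe it within its list. Lef1 also had 2 H3K18la regions called at E13.5 only, of which chr3:131154849-131155981 had the highest enrichment of all such regions near members (6.63 and 6.38) and lay 313 bp from an internal start, and 1 called at E16.5 only. Tcf7l1 (chromosome 6, 72626371 to 72789045) had 5 H3K18la regions called at E13.5 only, between 74763 and 143652 bp from its start, and 0 called at E16.5 only. Tcf7l2 had 4 at E13.5 only, and Lgr5 had 3 H3K9ac regions at E16.5 only. The strongest H3K9cr region called at E16.5 only lay at chr11:108917454-108918382 by Axin2 (7.01 and 7.21). It covers the 5′ end of the Axin2 span, at 108917828, and lay 1967 bp before the start listed for that gene. The strongest H3K9ac region called at E13.5 only lay at chr6:119543389-119543835 in Wnt5b (10.9 and 8.26). Wnt8b, whose RNA fell, had 2 H3K18la regions called at E13.5 only at its far end, and Lgr6, whose RNA rose, had 1 at each stage. Of the 11 members higher in RNA, 2 had an H3K9ac region called at E16.5 only (Lgr5 and Wnt3), against 28.9% of the 4176 protein-coding genes called higher, as did 3 of the 13 lower (Lef1, Lrp6 and Tcf7l1), against 12.7% of the 4458 called lower. An H3K18la region called at E13.5 only lay near 3 of the 11 higher members and 5 of the 13 lower ones, against 19.7% and 15.9% of such genes.

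At the start sites, the 44 RefSeq windows (250 bases before to 50 after the start) were compared with those of all protein-coding genes. H3K9ac peaks of all 4 libraries covered 20 of the 44 (against 55.5% of all windows), H3K9cr peaks 22 (against 56.2%) and H3K18la peaks 5 (against 34.7%), and ATAC peaks of both libraries covered 9 (against 36.7%). These shares cover only the 36 members with an entry. Axin1, Fzd2, Fzd3, Fzd8, Lrp6, Sfrp1 and Wnt7b are among those without one. Of members without an entry, Fzd2 and Fzd8 had H3K18la peaks of all 4 libraries and ATAC peaks of both within 2 kb. Dkk4 and Notum, also without an entry, had no peak there. No H3K9ac peak covered 14 windows, among them those of Sfrp5, Wnt4 and Lgr6, whose RNA rose, and of Wnt8b and Rspo1, whose RNA fell. Wnt4 and Lgr6 did have an H3K9ac region of all 4 libraries within 2 kb of their spans. The 14 also include 1 start each of Lef1 and Wnt5b, whose other starts were covered in some or all libraries. The windows without H3K9ac were not poorer in CpG, with a median observed over expected ratio of 0.78, against 0.712 in the 20 windows covered by all 4 libraries. H3K9ac covered 3 windows at E16.5 only, those of Wnt3, Wnt9b and Wnt10b (against 1.3% of all windows), and 1 at E13.5 only, that of Fzd5 (against 0.357%). For Wnt3, whose RNA rose, the peak at chr11:103773399-103774363 spans the bases printed above and had enrichments of 5.76 and 5.20. Wnt9b overlaps the same region from its neighbouring span, and its own RNA stayed under 5 counts in every library. H3K18la covered 1 window at E16.5 only, the printed start of Wnt11 (5.88 and 5.96, against 0.969% of all windows). It covered 0 windows at E13.5 only (against 2.07%). H3K9cr covered 0 windows at E16.5 only (against 0.912%) and 1 at E13.5 only, that of Fzd10 (against 0.325%).

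**Figure D5:**
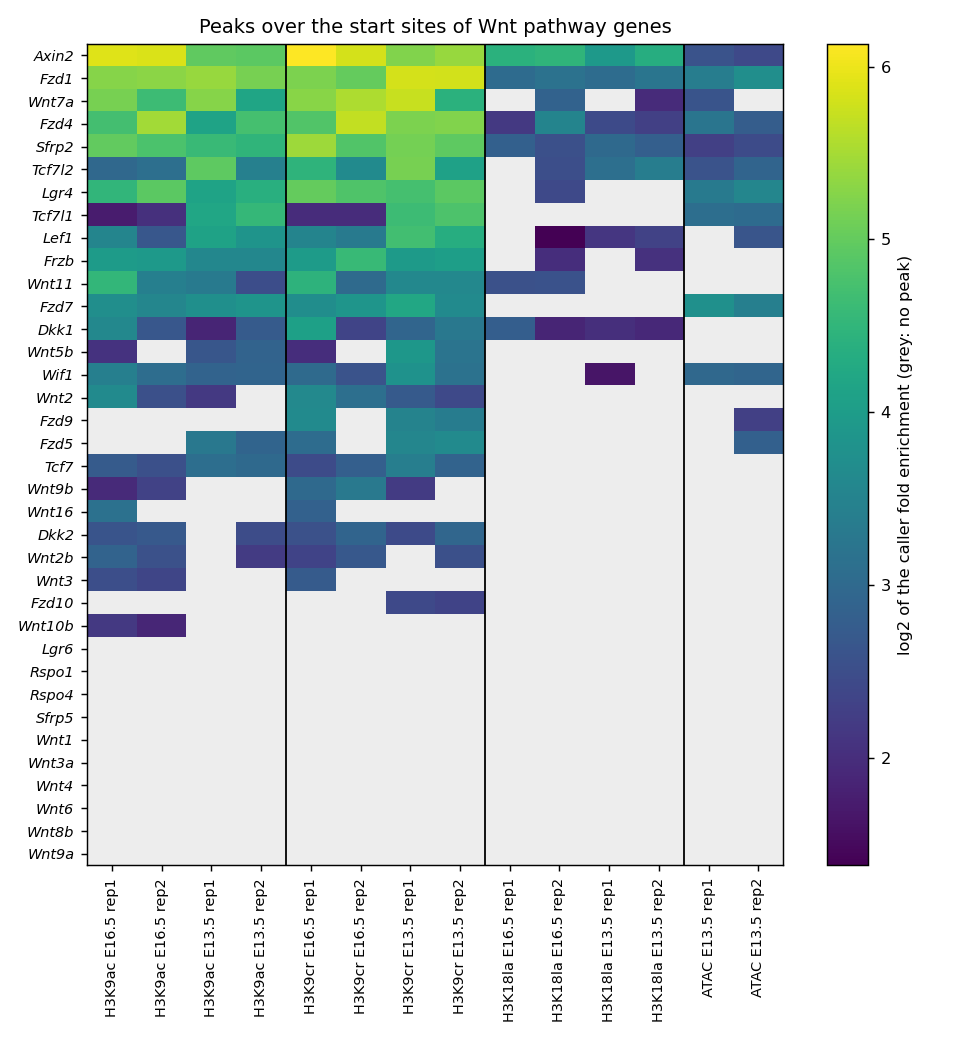
Caller's fold enrichment (colour, log2) of the strongest peak over the RefSeq start window of each of 36 genes (rows, for genes with several starts the one with the strongest peak) in each list (columns, E16.5 left of E13.5 within each mark, ATAC at E13.5 alone); grey means no peak, and each value is relative to its own library. Axin2 tops the rows, 10 genes have no peak in any list, and Tcf7l1 lies at the dark end for H3K9ac and H3K9cr in the E16.5 columns.

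The start of Tcf7l1, printed above, had H3K9ac peaks in all 4 libraries, with enrichments of 3.36 and 4.10 at E16.5 and 18.3 and 23.2 at E13.5. Within its own list, such a peak was stronger than 3.8% and 14.9% of peaks at E16.5 and 67.7% and 71.6% at E13.5. H3K9cr there had 3.94 and 3.95 at E16.5 (11.1% and 12.2% of the list lower) and 24.9 and 27.8 at E13.5 (63.6% and 63.2% lower). The lists differ in length, so these positions describe each library and are no measure of a change. At E13.5 the same start was open in both ATAC libraries, with 8.49 and 8.17. Axin2, whose RNA was not called, had H3K9ac enrichments of 60.0 and 57.9 at E16.5 and 31.5 and 30.6 at E13.5 and H3K18la enrichments of 21.2 and 22.6 at E16.5 and 15.2 and 20.1 at E13.5, with H3K18la standing above at least 96.4% of peaks in each list. The first start of Tcf7l2 had H3K9ac enrichments of 7.86 and 8.71 at E16.5 and 30.9 and 10.9 at E13.5, with replicate 1 the higher. H3K9cr at that start was also higher in replicate 1 at E13.5, while H3K18la (8.62 and 10.5) and ATAC were higher in replicate 2. At the second start, both H3K9ac (4.37 and 9.33) and H3K9cr were higher in replicate 2 at E13.5. The order of the E13.5 libraries thus varied with mark and start. Whether they share tissue with the same-numbered RNA libraries is not stated in the labels.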

How the data were processed

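RNA abundance came as the authors' expected counts per gene, for which the submitters' processing notes name Salmon 1.1.0. Their comparison table gives deposited log2 fold changes with p-values, and the submitters' processing notes name DESeq2 1.26.0. Each ChIP-seq and ATAC-seq library had its own peak list; Bowtie2 2.4.1, MACS2 2.2.7.1 and GRCm38 are named in the submitters' processing notes. Peaks carried a pileup signal, a -log10 p-value and q-value and a fold enrichment ratio over local background, per the file headers. The peak caller's control and other settings were not found in the labels, read depths behind the peaks are unknown, and the input libraries were not analysed here.

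After rounding, expected counts were fitted in edgeR 4.0.16 under R 4.3.3 (TMM, filterByExpr, quasi-likelihood F test, E16.5 minus E13.5, 2 residual degrees of freedom). P-values were Benjamini-Hochberg adjusted over all genes tested, with a threshold of 0.05, and the fit was checked on simulated data. They weigh the stage difference against a spread between libraries that is estimated with the help of all genes. With 2 libraries per stage, that spread may be technical in part. Standard errors are the log2 change over the root of F. CPM is not corrected for length, so levels are compared between stages and not between genes. Intervals and floors cover counting error only. Peaks were merged over the 4 libraries of a mark at an overlap of at least 1 bp in Python 3.11.15, and gene spans and starts came from RefSeq on GRCm38.p6.

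The members and all lists were chosen with earlier results of these data known. Values are given for every member averaging 1 CPM or more, the others by counts, up to 6 rises and 6 falls per other list, the strongest stage-specific region per mark and stage, and genes with 3 or more such regions. Alternatives were other scalings, no filter, DESeq2 1.42.0, a replicate block, leaving out each library, other windows, stricter peaks, equal peak numbers and a coverage rule.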

Additional observations from a re-analysis of the deposited data

How the results depend on the processing

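Of the 24 called members, 19 kept direction and call in every alternative run, the exceptions being Lgr5, Lgr6, Lrp6, Rspo1 and Rspo3. Counts of members higher and lower were 11 and 12 in DESeq2, 12 and 16 with no filter and 11 and 15 with the replicate block, and ranged from 9 to 12 and from 11 to 15 when single libraries were left out. The block ended no call among these genes and added Lrp5 (adjusted p = 0.0486) and Tcf7l2 (adjusted p = 0.0450); deviations of same-numbered libraries correlated with r = 0.12 over 16237 genes, and the labels do not say that a number marks a shared litter or day. With upper-quartile scaling the median over all genes was a log2 change of 0.10, against 0.01. Among genes that were not called, directions turned under that scaling for Sfrp2 (0.0037) and Wnt7a (0.0130). They also turned in part when single libraries were left out, over ranges of -0.0753 (without E13.5 replicate 2; -0.0193 without E16.5 replicate 1) to 0.1227 for Axin2, -0.0499 (without E16.5 replicate 2) to 0.7994 for Dkk2, -0.0240 (without E13.5 replicate 2) to 0.2509 for Fzd7, -0.1468 (without E13.5 replicate 1; -0.0155 without E16.5 replicate 1) to 0.2826 for Lgr4, -0.4965 to 0.0212 (without E13.5 replicate 2) for Sfrp4 and -1.7717 to 0.0853 (without E13.5 replicate 2) for Tcf7l2. The cause was not tested.

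Counts of stage-specific regions moved most. With equal peak numbers, H3K9ac had 8 E16.5-only and 11 E13.5-only regions and H3K9cr 2 and 6. With a -log10 q of at least 5, H3K9ac had 1 E13.5-only region, H3K9cr 7 and 2, and H3K18la 2 E16.5-only regions. When peaks had to cover at least 0.5 of a region, H3K9cr had 5 E13.5-only regions and H3K18la 3 and 42, and a 10 kb window gave H3K9cr 1 E13.5-only region. Leaving out single libraries, which loosens the rule, gave 24 to 39 and 5 to 14 for H3K9ac, 16 to 28 and 1 to 4 for H3K9cr, and 7 to 35 and 31 to 64 for H3K18la.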
